A study of Mus musculus with 3 samples.

Results

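The cytosolic ribosomal protein genes are the 84 rows, of 23282 gene rows in each library, whose mouse symbol is Rps or Rpl with a number (with or without the endings a, x, l, l1 or al), together with Rplp0, Rplp1, Rplp2 and Rpsa. Rows named as pseudogene copies, with -ps in the symbol, were left out and used only to see whether reads were divided between a gene and its copies. Spleen and lymph nodes of mice labelled C57BL/6 (C57BL/6J in the study's methods) gave the CD4 T cells, which were stimulated for 72 h with anti-CD3 and anti-CD28 antibodies at 2 µg/ml. CM was complete medium, DM was dialyzed medium (a base without amino acids, with dialyzed serum), and DM+Met was DM with 30 µM methionine added. The mice, the stimulation and the duration were common to the 3 media, and methionine was the single addition that separated DM+Met from DM. Each medium had 2 numbered libraries, which the study describes as biologically independent samples and the labels do not describe, so that every p-value measures the spread between these libraries, which may be technical.

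A ribosome is built of ribosomal RNA and one copy of most ribosomal proteins, and an activated T cell makes large numbers of ribosomes before it divides. In mammals the mRNAs of these proteins begin with a C followed by a run of pyrimidines, the 5′ terminal oligopyrimidine (TOP) motif. Their translation depends on mTORC1, which senses amino acids, and on the cap-binding protein LARP1, which also stabilizes such mRNAs. RNA levels of these genes therefore give one layer of their expression, and translation was not measured here. Levels are log2(CPM + 1), where CPM is the library-scaled read count adjusted by TMM, a factor that aligns the bulk of genes between libraries. The library kit reads the 3′ end of a transcript, so a level is per transcript and not per length.

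RefSeq promoter sequences (GRCm38.p6, the same build as mm10) were found for 63 of the 84 members, and 13 of the 63, 20.6%, began with a C and at least 4 further pyrimidines at the annotated start. Over the 27025 genes of the same table the share was 3.01%. The starts of 4 of these 13 members are shown because their levels behaved differently in the comparisons described further on, with the 15 bases before the start followed by the 15 bases from it. Capitals mark the pyrimidine run that begins at the annotated start.
Rps15a, chr7:118116133-118116162, minus strand: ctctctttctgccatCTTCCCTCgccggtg
Rps27, chr3:90213634-90213663, minus strand: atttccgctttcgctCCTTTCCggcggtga
Rpl28, chr7:4792950-4792979, plus strand: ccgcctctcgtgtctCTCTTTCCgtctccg
Rps6, chr4:86857353-86857382, minus strand: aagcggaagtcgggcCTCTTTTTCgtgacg
Of the same windows of 300 bases (250 before the start and 50 after it), 25 of 63 members, 39.7%, held CCGGAAG on either strand, the core that ETS factors such as GABP bind. The share over all promoters of the table was 9.93%. These matches describe the letters in the windows and say nothing about binding or start sites in these cells.

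The ribosomal protein genes were among the most abundant RNAs of the libraries. Of the 100 rows with the highest mean level, 39 were members, and 75 of the 84 members were within the first 500 rows. The highest was Rps14, a small subunit protein, at 11.88 and 11.94 in CM, 12.31 and 11.98 in DM, with 11.89 and 11.94 in DM+Met. At the other end, Rpl3l, which is known from striated muscle, was at 0 in all 6 libraries, and Rpl10l, known from testis, had no read outside DM. A count of 0 still allows 3 reads, which is a log2 value of 0.323 to 0.469 depending on the library. These 2 rows did not pass the filter on low values (10 reads at the median depth in 2 libraries), so 82 of 84 members were tested. Rpl39l, the least abundant of the 82, was read 0 and 39 times in CM, 10 and 5 in DM, with 8 and 9 in DM+Met. Its difference between the CM libraries, 2.58 on the log2 scale, was the widest of any member within a medium.

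Together the members took 8.60% and 8.81% of all reads in CM, 6.93% and 6.25% in DM, with 9.49% and 8.89% in DM+Met. The DM libraries were the lowest of the 6, and the mean of CM was 8.71% ± 0.15, that of DM 6.59% ± 0.48 and that of DM+Met 9.19% ± 0.42 (SD, n = 2 each). A single row, Rn45s, the 45S ribosomal RNA precursor, held 31.04% to 32.92% of reads in CM, 37.2% and 38.3% in DM, with 15.47% and 20.06% in DM+Met. Outside Rn45s, the share of the members was 12.82% and 12.78% in CM, 11.03% and 10.13% in DM, with 11.22% and 11.12% in DM+Met. On this base the 4 libraries of the dialyzed media were below both CM libraries, and the DM+Met libraries were above both DM libraries. As a share of TMM-scaled counts, DM+Met (7.749%, 7.637%) likewise exceeded DM (7.388%, 6.833%). Once Rplp1 and Rps15a were left out of that sum, DM+Met (7.045%, 6.908%) lay within the range of DM (7.113%, 6.585%). CM stayed the highest (8.751%, 8.773%). The separation of DM+Met from DM among scaled counts thus depended on these 2 genes. With 2 libraries against 2, an exact permutation test cannot give a two-sided p below 0.333, so these shares were not tested. In bulk RNA, fewer cells of a type and less RNA per cell cannot be told apart.

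**Figure D1:**
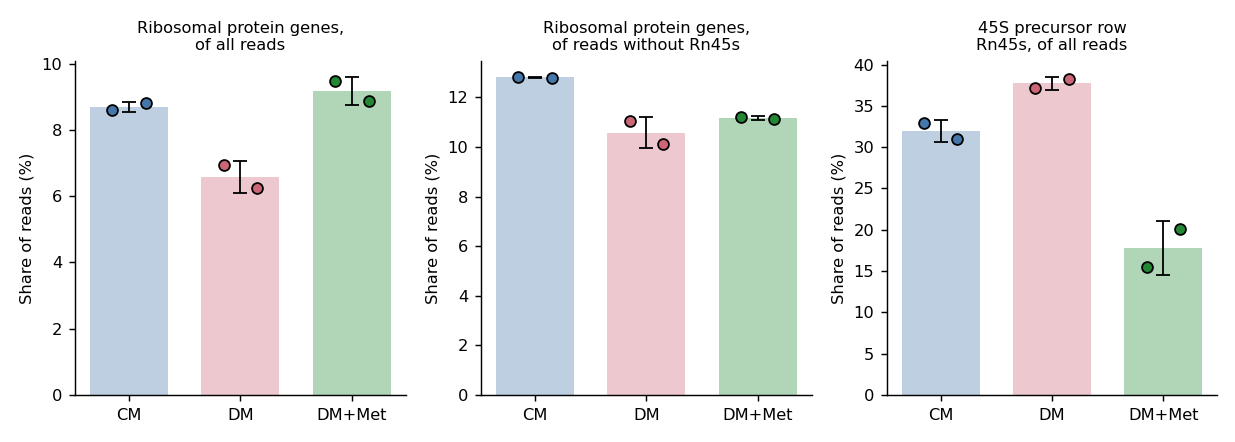
Share of reads (%) of the ribosomal protein genes among all reads (left) and among reads outside Rn45s (middle), and of Rn45s itself (right), with a point per library, a bar at the mean of 2 libraries and an error bar of 1 SD. The members' share in DM+Met is above that in CM among all reads and below it once Rn45s is left out.

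In DM, the ribosomal protein genes were on the whole lower than in CM, and none was called higher. By limma at an adjusted p below 0.05, 29 of the 82 tested members fell and 0 rose, where 9.07% of the 12770 rows tested were called lower and 7.8% higher. At an unadjusted p below 0.05 the counts were 43 lower and 1 higher. For unadjusted counts, here and further on, the share of all rows is not given. Limma-voom on recovered reads called 34 members lower and 0 higher, and 1582 of all 12770 rows in either direction. Members are abundant and their error is small: the median standard error was 0.15 for members and 0.44 for all rows, which makes a change of a given size easier to call. The median difference did not depend on that error and was -0.38 over the members, which is 0.771 times the CM level, against 0.07 over all rows. The lower and upper quartiles of the members were -0.69 and -0.16. In 57 of 82 members both DM libraries were below both CM libraries, a pattern found in 26.2% of all rows. Members of the large subunit had a median of -0.40, with 17 of 47 called, and those of the small subunit a median of -0.32, with 10 of 32 called.

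Rplp1 showed the widest decrease of any member. It encodes an acidic protein of the stalk, where P1 and P2 dimers sit on Rplp0 and recruit elongation factors. Its level was 12.62 and 12.60 in CM, 10.61 and 10.42 in DM, with 12.11 and 12.27 in DM+Met. The DM libraries lay far below the 4 others, which did not differ between media beyond the threshold. DM was 0.234 times CM (log2 difference -2.10 ± 0.14 SE, adjusted p = 5.1e-05). Its stalk partners moved far less. Rplp0 was at 10.72 and 10.72 in CM and at 10.31 and 10.16 in DM, a difference of -0.48 (adjusted p = 0.0319). Rplp2 was at 10.75 and 10.86 in CM and at 10.63 and 10.47 in DM, a difference of -0.26 that was not called (adjusted p = 0.234). Within each library, Rplp1 exceeded Rplp2 by 1.87 and 1.74 in CM and by 1.59 and 1.55 in DM+Met, but not in DM, where it was below it by 0.02 and 0.045 (differences of log2 levels). This relation leaves out the reads of Rplp2-ps1, a copy by its symbol. With them added, Rplp2 was at 12.52 and 12.55 in CM, 12.21 and 12.17 in DM, with 12.08 and 12.27 in DM+Met. That sum was close to Rplp1 in CM and DM+Met and above it in DM.

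Of the small subunit members, Rps2 fell most. The protein lies near the channel through which the mRNA enters, and its level was 9.68 and 9.46 in CM, 7.94 and 8.12 in DM, with 7.87 and 7.97 in DM+Met. Both dialyzed media were thus separate from CM and overlapped each other. The difference between DM and CM was -1.54 ± 0.15 (adjusted p = 3.6e-04). Rps13 went from 9.17 and 9.17 in CM to 8.42 and 7.91 in DM, a difference of -1.01 (adjusted p = 0.00591). Rps27l, a paralog of Rps27 known as a p53 target, went from 7.13 and 7.12 to 6.31 and 6.00, a difference of -0.97 (adjusted p = 0.00854). Further called members of this subunit were Rps9, Rps12, Rps15a, Rps26, Rps27a and Rpsa, with differences of -0.84 to -0.71. Rps26 contacts the mRNA near the exit channel, Rps27a is made as a fusion with ubiquitin, and Rpsa is also known as a laminin receptor precursor.

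Among large subunit members the widest decrease was in Rpl22l1, the paralog of Rpl22. It went from 8.84 and 8.71 in CM to 7.40 and 7.57 in DM, a difference of -1.29 ± 0.15 (adjusted p = 8.9e-04). Rpl27a went from 11.17 and 11.23 to 10.31 and 9.91, a difference of -1.10 (adjusted p = 0.00245). Rpl41, a very short basic peptide, went from 11.09 and 11.21 to 10.18 and 10.21, a difference of -0.96 (adjusted p = 0.00164). In these 3 genes, as in the 2 that follow, the libraries of CM and DM did not overlap. Rpl4, which lines the exit tunnel, differed by -0.95 (adjusted p = 0.00328), and Rpl3, which reaches towards the peptidyl transferase centre, by -0.89 (adjusted p = 0.00899). Rpl28 went from 9.90 and 10.09 to 9.19 and 9.04, a difference of -0.88 (adjusted p = 0.00418). The other 11 called members of the large subunit differed by between -0.86 (Rpl7a) and -0.50 (Rpl36a).

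Other members had no detectable difference between DM and CM, and several of these have roles outside the ribosome. Rps6, the substrate of the S6 kinases downstream of mTORC1, was at 9.37 and 9.42 in CM and at 8.94 and 9.31 in DM, a difference of -0.27 with a 95% interval of -0.61 to 0.08. Rpl5, which binds the 5S ribosomal RNA and Mdm2 together with Rpl11, had a difference of -0.03 with an interval of -0.37 to 0.31. Rpl11 itself was lower, at 8.01 and 7.71 in CM and at 6.95 and 7.32 in DM (difference -0.72, adjusted p = 0.0285). Rps14 and Rps19, whose haploinsufficiency causes anaemia, differed by 0.23 and 0.08 with intervals of -0.11 to 0.58 and -0.39 to 0.55. In 27 of the 82 members the 95% interval lay within 1.5-fold of no difference on both sides. The decrease in DM was therefore uneven: 6 members differed by more than 1 on the log2 scale, the non-called Rps4l (upwards, on few reads) among them, while others were bounded near no difference.

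**Figure D2:**
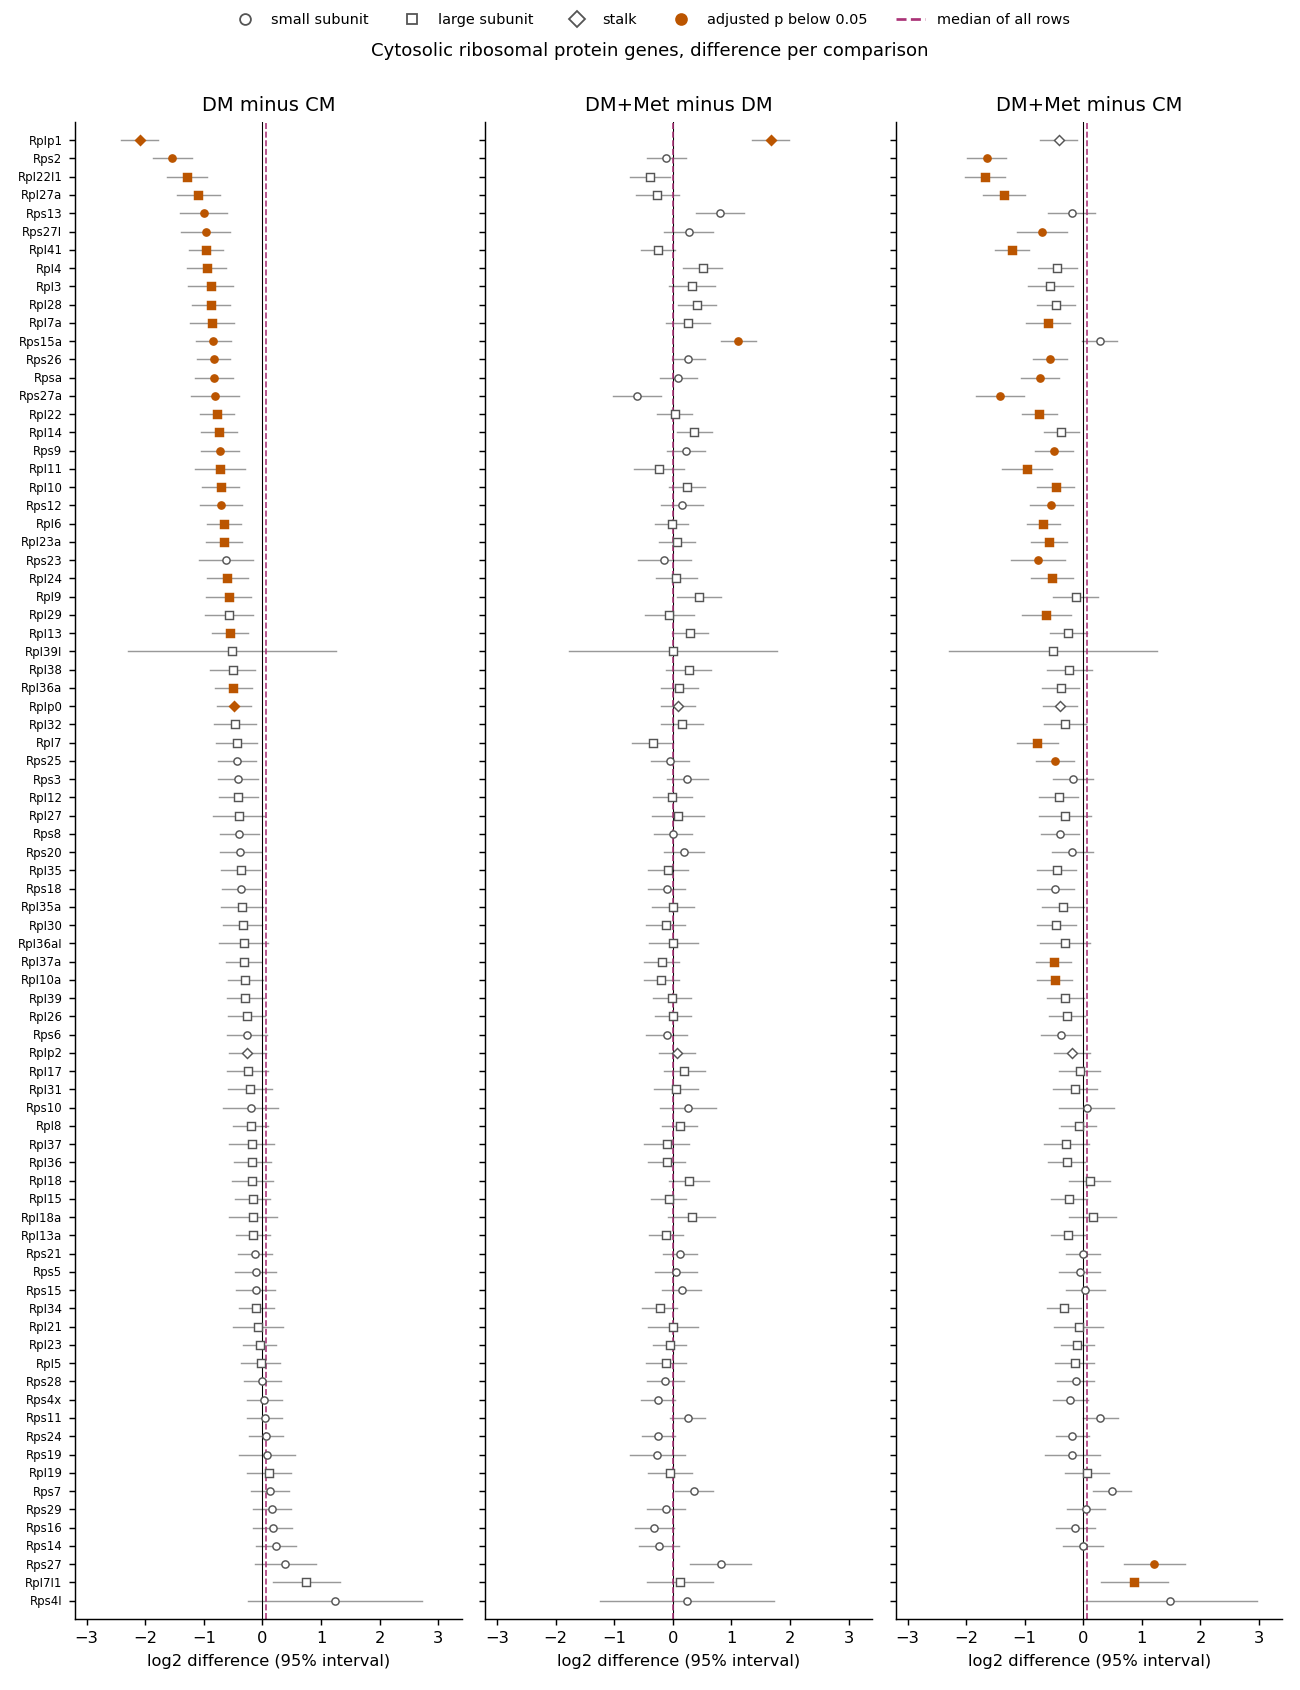
Log2 difference (x axis, with its 95% interval) of 81 of the 82 tested members in the 3 comparisons, in the order of the difference between DM and CM. Filled symbols had an adjusted p below 0.05, circles, squares and diamonds stand for the small subunit, the large subunit and the stalk, and the dashed line is the median of all rows tested. Most members lie left of that line in DM against CM and in DM+Met against CM, and around it in DM+Met against DM, where Rplp1 and Rps15a stand apart.

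The number of calls moved with the libraries in the fit. Without 1 CM library, 5 members (without library 1) or 9 (without library 2) were called, and without 1 DM library 24 (without library 1) or 18 (without library 2, 1 of them higher, Rps27). Without either DM+Met library, which only adds to the estimate of the spread, 19 were called. The median of the members remained between -0.42 and -0.33 in these 6 fits. Rplp1, Rps2 and Rpl22l1 were called in each of the 18 alternatives that were tried, with adjusted p-values of at most 0.0395. The calls of Rplp0, Rpl11 and Rps27a held in 6, 8 and 9 of the 18 and were lost with any 1 library left out (adjusted p of at least 0.0517, 0.0552 and 0.052).

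With methionine added to DM, 2 members were called higher and 0 lower by the same test. Over all rows 5 were called higher and 2 lower, 0.0392% and 0.0157% of those tested. At an unadjusted p below 0.05, 9 members were higher and 2 lower. Limma-voom also called 2 members higher and 0 lower, and 21 of all rows in either direction. The median over the members was 0.04 against 0.01 over all rows, and both DM+Met libraries were above both DM libraries in 22 members of 82, a pattern found in 20.4% of all rows. In 53 of 82 members the 95% interval lay within 1.5-fold of no difference. The 2 called members were Rplp1 and Rps15a.

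Rplp1 was 3.19-fold higher in DM+Met than in DM, a log2 difference of 1.67 with a 95% interval of 1.36 to 1.99 (adjusted p = 0.00168). Behind these levels stood 15315 and 15528 reads in DM and 52805 and 58678 in DM+Met, so that the call did not rest on few reads. The level in DM+Met was 0.42 below that in CM, which was not called (adjusted p = 0.0738, 95% interval -0.74 to -0.11). Rplp0 and Rplp2 differed between DM+Met and DM by 0.08 and 0.07. The call of Rplp1 was lost with any 1 of the 6 libraries left out (adjusted p of 0.155 to 0.466), while its difference was 1.58 to 1.77. In those fits no row of the whole table was called. GENCODE annotation (release M21) holds 1 processed copy of Rplp1, for which there is no row, and whether reads went to or came from it was not tested.

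Rps15a, a small subunit protein, was at 11.00 and 11.01 in CM, 10.21 and 10.11 in DM, with 11.36 and 11.21 in DM+Met. DM+Met exceeded DM by 1.12 (adjusted p = 0.0164, 95% interval 0.83 to 1.41), and DM was 0.84 below CM (adjusted p = 0.00324). The DM libraries were the lowest and did not overlap with the others. Its copy Rps15a-ps6 showed the opposite order, at 8.33 and 8.16 in CM, 9.39 and 9.35 in DM, with 8.28 and 7.94 in DM+Met. For this copy DM was 1.13 above CM (adjusted p = 0.00199) and DM+Met was 1.26 below DM (adjusted p = 0.024). The copy held 36.0% and 37.18% of the reads of the pair in DM, 13.55% and 12.17% in CM, with 10.55% and 9.34% in DM+Met. As for Rplp1, the calls of both in DM+Met against DM were lost with any 1 library left out (adjusted p of at least 0.155 for Rps15a and at least 0.166 for the copy), with differences of 1.05 to 1.19 and of -1.43 to -1.09.

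The copy is the processed pseudogene at chr11:6172644-6173036 (mm10) and differs from the Rps15a transcript at 5 of 393 bases, an identity of 98.73%. The last 92 bases of the copy are identical to the gene, so a read from that end cannot be assigned to either by its sequence. The difference nearest to the 3′ end is shown in capitals.
Rps15a: cacgtcagtttggcTtcattgtgctgaca
Rps15a-ps6: cacgtcagtttggcCtcattgtgctgaca
When the reads of Rps15a and of its copies ps6 and ps4 were summed, the levels were 11.25 and 11.23 in CM, 10.89 and 10.83 in DM, with 11.54 and 11.37 in DM+Met. The order of the media was the same, but the difference between DM+Met and DM was 0.59 (adjusted p = 0.235) and that between DM and CM -0.38 (adjusted p = 0.0797), so neither was called. The result for Rps15a thus depended on how the reads were divided between the gene and its copy. Whether the division itself follows from the alignment or from the RNA was not tested.

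**Figure D3:**
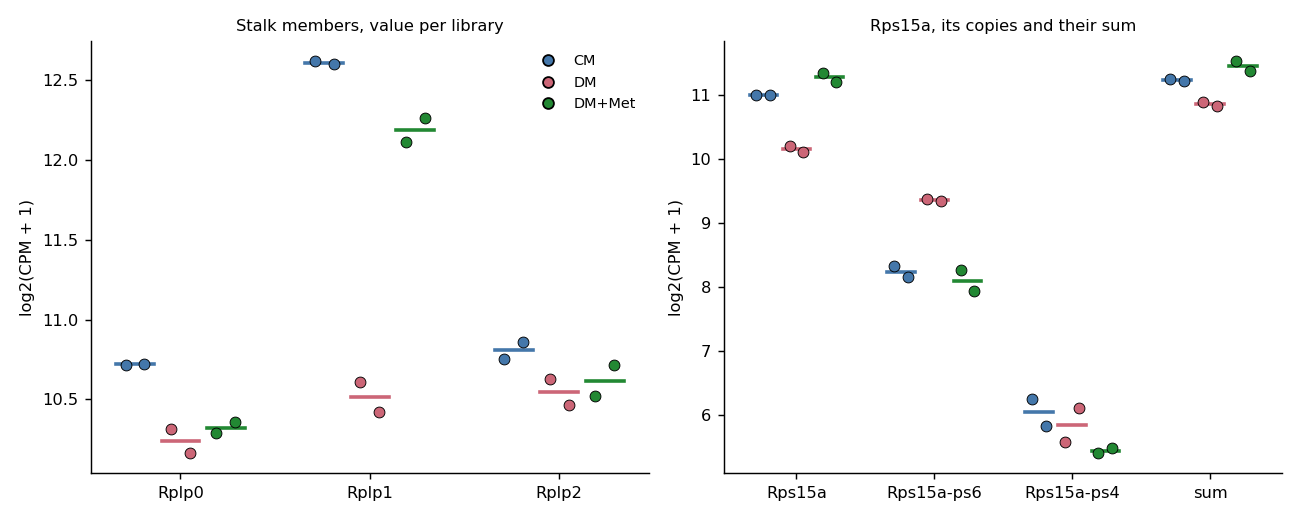
Level, log2(CPM + 1), of the stalk members (left) and of Rps15a, its copies and their sum (right), with a point per library and a line at the mean of 2 libraries. Rplp1 is low in DM next to Rplp0 and Rplp2, and Rps15a and Rps15a-ps6 move in opposite directions in DM while their sum varies less.

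Some members that missed the threshold had intervals that left out 0. Rps13 was at 8.86 and 9.07 in DM+Met, above both DM libraries and below both CM libraries, with a difference from DM of 0.81 (95% interval 0.40 to 1.21, adjusted p = 0.232). Rps27 was at 9.75 and 9.60 in DM+Met against 9.27 and 8.44 in DM, a difference of 0.82 (95% interval 0.30 to 1.34, adjusted p = 0.336). The DM libraries of Rps27 differed by 0.83, the widest such difference of any member in that medium. Rpl4 differed by 0.51 (95% interval 0.17 to 0.84, adjusted p = 0.347). Rps27a was at 8.57 and 8.20 in DM+Met against 8.78 and 9.23 in DM, a difference of -0.62 (95% interval -1.02 to -0.21, adjusted p = 0.347), the lowest value of any member. For Rps6 and Rpl5 the intervals were -0.45 to 0.24 and -0.46 to 0.22.

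Against CM, the members in DM+Met were again lower on the whole, with 23 called lower and 2 higher. Over all rows 8.36% were called lower and 6.92% higher. This comparison shares its CM libraries with the first one, and the 2 are therefore not independent. The median over the members was -0.31 against 0.06 over all rows. The widest decreases were those of Rpl22l1, at 7.10 and 7.09 (difference from CM -1.68, adjusted p = 1.7e-04), and Rps2 (difference -1.65, adjusted p = 1.7e-04). Rps27a differed by -1.42 (adjusted p = 0.001), Rpl27a by -1.36 (adjusted p = 6.5e-04) and Rpl41 by -1.22 (adjusted p = 3.6e-04). Rpl11 was at 6.95 and 6.85 (difference -0.96, adjusted p = 0.00881). Rpl7, Rps23, Rpl22 and Rpsa followed, with differences of -0.79 to -0.74. The first 5 of these genes were called in all 18 alternatives.

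The median of the members in DM+Met against CM changed sign when library totals took the place of TMM scaling, to 0.08, with 5 members called higher and 5 lower. Of all 12770 rows, 2701 were called in either direction in that fit. Under library totals the median of all rows moved to 0.41, so that the members lay 0.33 below it, compared with 0.38 under TMM. For DM+Met against DM the same scaling gave a median of 0.41 with 4 members called higher, against a median of 0.34 for all rows. There, 55 of all rows were called in either direction. For DM against CM the same scaling gave -0.35 with 26 called lower, and 2053 of all rows were called in either direction. The direction of the members relative to all rows was thus the same under each scaling in the comparisons with CM, and the absolute direction in DM+Met was not.

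Rps27 and Rpl7l1 were the 2 members called higher in DM+Met than in CM. Rps27, a zinc-finger protein of the small subunit, was at 8.38 and 8.54 in CM, and DM+Met was 1.21 above it (adjusted p = 0.0075). The call of Rps27 was kept in 13 of 18 alternatives, and its difference was 1.13 to 1.29 with 1 library left out. Rpl7l1, a paralog of Rpl7, was at 5.17 and 4.94 in CM, 6.04 and 5.57 in DM, with 6.04 and 5.82 in DM+Met, with a difference between DM+Met and CM of 0.87 (adjusted p = 0.0461). This call was kept in 7 of 18 alternatives. Rps27rt, a near-identical copy of Rps27 that differs at 2 of 343 bases, was at 9.32 and 9.28 in CM, 9.85 and 9.43 in DM, with 10.10 and 10.00 in DM+Met. It was also higher in DM+Met than in CM, by 0.74 (adjusted p = 0.0129), a call kept in 12 of 18 alternatives. Rps27rt held 56.04% to 66.48% of the reads of the pair, and the reads of the pair were not summed.

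Paralogs, some of which can take each other's place in the ribosome, shifted relative to each other in 3 pairs. For Rpl22, whose loss blocks the development of αβ T cells in mice, and Rpl22l1, both members fell in DM, by 0.78 and 1.29. The paralog's level relative to Rpl22 was -2.92 and -2.94 in CM, -3.56 and -3.33 in DM, with -3.82 and -3.90 in DM+Met, so that it was lower in each library of the dialyzed media than in CM. Rps27l relative to Rps27 was -1.25 and -1.42 in CM, -2.96 and -2.44 in DM, with -3.36 and -3.14 in DM+Met. Rpl7l1 relative to Rpl7 went from -4.24 and -4.18 in CM to -2.66 and -3.37 in DM, with -2.45 and -2.65 in DM+Met. The groups of these 3 differences did not overlap between CM and the other media, but the differences themselves were not tested. Rpl36al and Rpl36a were at nearly equal levels, with relative values of -0.17 to 0.36 in the 6 libraries and no separation of the media. Rps4l, relative to the abundant Rps4x, was read 15 and 0 times in CM, 28 and 33 in DM, with 28 and 63 in DM+Met. No difference of Rps4l was called.

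**Figure D4:**
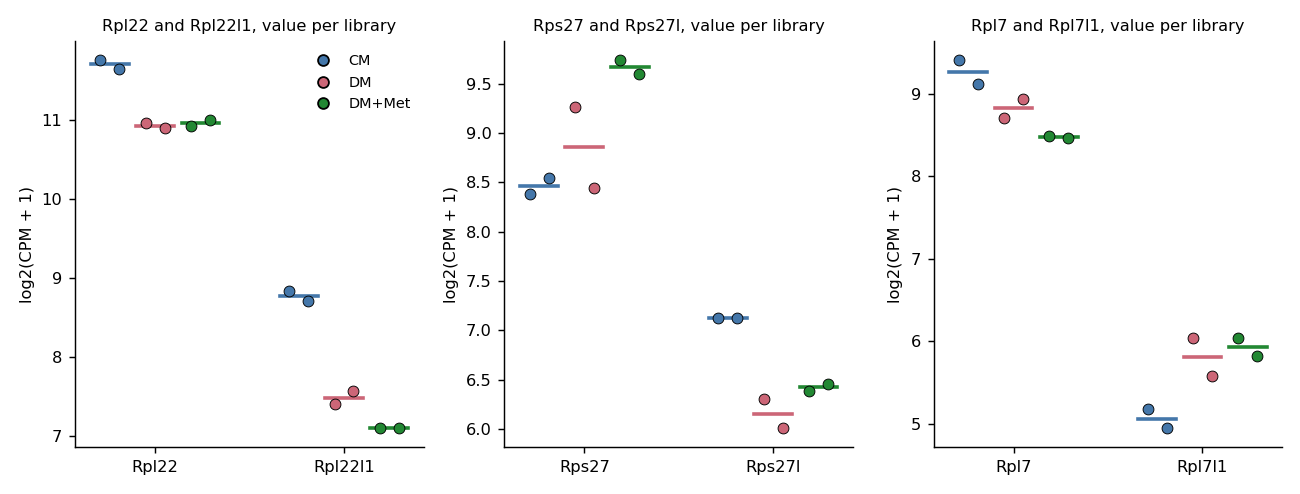
Level, log2(CPM + 1), of 3 pairs of paralogous members, with a point per library and a line at the mean of 2 libraries. Rpl22l1 and Rps27l are highest in CM, Rpl7l1 is lowest there, and the DM libraries of Rps27 lie 0.83 apart.

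Reads of a ribosomal protein mRNA can be shared with many processed pseudogenes. GENCODE transcripts were found for 83 members, and 71 of them had at least 1 annotated pseudogene with at least 97% identity over 100 bases. There were 353 such copies in all, with a median of 3 and a maximum of 32 per member (Rpl21), and only 10 of them had a row. Where a copy with -ps in its symbol had a row, its share of the reads was followed. Copies of Rpl22l1 (Gm15421), Rps26 (Gm6654), Rpl26 (Gm15772), Rpl30 (Gm12191) and Rpl37 (Rpl37rt) also had rows. For these the division of reads was not followed. Rplp2-ps1 and Rps19-ps3 are copies by their symbol and are not among those 10. Rps19-ps3 has an identity of 95.31% with Rps19, below 97%, and that of Rplp2-ps1 with Rplp2 is not given here. Rpl34-ps1, which differs from Rpl34 at 2 of 354 bases, held 47.5% to 48.7% of the pair in all 6 libraries. Rplp2-ps1 held 65.96% to 70.67% of the sum with Rplp2, more than the gene. Rpl14-ps1 held 16.0% to 31.2% of the sum with Rpl14, and Rpl31-ps12 held 16.43% to 31.98% of that with Rpl31, each highest in the second DM library, while Rps19-ps3 held 21.23% to 34.94% of that with Rps19 and was lowest there. Of the -ps copies, Rps15a-ps6 was the one called in DM against CM and in DM+Met against DM. Adding the reads of the -ps copies to 6 members left 28 members called in DM against CM, 1 in DM+Met against DM (Rplp1) and 26 in DM+Met against CM.

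Of the 13 members that begin with a C and 4 or more pyrimidines, 12 had a negative difference between DM and CM, with a median of -0.35. Of these 13, 3 were called lower (Rpl14, Rpl28 and Rps15a). Of the 48 tested members with another start in the table, 40 had a negative difference and 21 were called lower, with a median of -0.43. Over all rows 9.07% were called lower. With methionine against DM the medians were 0.13 and 0.0015, with 1 (Rps15a) and 0 called. Annotated starts are single positions, and the RNA ends used in these cells were not measured.

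For 3 ribosomal protein genes whose symbol does not follow the pattern, limma gave 0 calls in any comparison, also at an unadjusted p below 0.05. These were Rps3a1, Fau, which is made as a fusion with a ubiquitin-like protein, and Gnb2l1, the scaffold protein RACK1. Their differences between DM and CM were 0.13 to 0.17, with each 95% interval within 1.5-fold of no difference. Fau was at 10.33 and 10.31 in CM, 10.47 and 10.46 in DM, with 10.49 and 10.56 in DM+Met. The median of the 3 was 0.15 beside -0.38 over the members, and no test compared the lists.

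Translation factors and other RNAs known for TOP starts were also mostly lower in DM. Of 15 tested, 11 were called lower and 1 higher, and the median was -0.72. Over all rows 9.07% were called lower and 7.8% higher. Npm1, a nucleolar chaperone of ribosome assembly, was at 10.45 and 10.45 in CM and at 8.67 and 8.80 in DM (difference -1.72, adjusted p = 9.7e-05). Nap1l1 differed by -1.41 (adjusted p = 0.00148), and Pabpc1, the poly(A) binding protein, by -0.83 (adjusted p = 0.00729). The elongation factors Eef1a1, Eef2 and Eef1g differed by -0.46, -0.54 and -0.81 (adjusted p of 0.0439, 0.0361 and 0.00408). Tpt1 was the one that rose, by 0.52 (adjusted p = 0.0323). The calls of Eef1a1, Eef2 and Tpt1 held in 5, 5 and 7 of the 18 alternatives and were lost with any 1 library left out (adjusted p of at least 0.0833, 0.0749 and 0.0745). With methionine, 0 of 15 were called by limma (2 lower and 0 higher at an unadjusted p below 0.05), and the median was 0.01. Compared with CM, 9 were called lower and 0 higher in DM+Met, where 8.36% of all rows were called lower.

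Among 11 regulators of TOP mRNAs and of ribosomal protein transcription, 6 differences between DM and CM were positive and 5 negative. Of the 11, 1 was called higher and 1 lower (9.09%), near the shares of all rows (7.8% higher and 9.07% lower). Eif4ebp1, the mTORC1-controlled repressor of cap-dependent translation, was at 7.01 and 6.81 in CM, 5.98 and 5.46 in DM, with 5.15 and 4.87 in DM+Met (DM against CM -1.19, adjusted p = 0.0114). Myc, a transcription factor that raises ribosome synthesis, was at 3.72 and 3.57 in CM, 5.61 and 4.996 in DM, with 4.89 and 5.49 in DM+Met (DM against CM 1.66, adjusted p = 0.0117). The call of Myc was lost with any 1 library left out (adjusted p of at least 0.0509), and that of Eif4ebp1 with any 1 but the first DM library (up to 0.0985). Larp1 was at 8.03 and 8.36 in CM and at 7.82 and 8.51 in DM, with overlapping libraries. By limma, 0 of 13 assembly factors and chaperones of ribosomal proteins were called in any comparison, and their median in DM against CM was 0.39. At an unadjusted p below 0.05, 1 was higher in DM than in CM. Pdcd2, which escorts Rps2 and was singled out after its values were seen, was at 3.49 and 3.72 in CM and at 4.33 and 4.92 in DM (difference 1.02, adjusted p = 0.0933).

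Of 7 p53 target and regulator genes, which bear on the binding of Mdm2 by Rpl5 and Rpl11, 1 was called lower in DM and 0 higher. It was Cdkn1a, a cyclin-dependent kinase inhibitor, at 8.91 and 9.29 in CM, 7.51 and 7.59 in DM, with 8.28 and 8.33 in DM+Met (DM against CM -1.55, adjusted p = 4.7e-04). Mdm2 was at 7.12 and 6.74 in CM and at 6.32 and 6.84 in DM, with overlapping libraries. Mitochondrial ribosomal protein genes, which serve a separate ribosome, had a median of -0.27 in DM against CM, with 61 of 77 differences negative. Of the 77, 13 (16.9%) were called lower and 0 higher, where 9.07% of all rows were called lower. Mrpl45 was among the lowest of the called ones, with a difference of -1.69 (-1.82 to -1.57 with 1 library left out), and was called in 18 of 18 alternatives. Mrpl1, at -2.65, was called in 9 of 18, and its difference was -3.84 without the second DM library and -1.46 without the first. Their median standard error was 0.32 compared with 0.15, so counts of calls in the 2 families are not comparable. With methionine 0 of the 77 were called by limma (6 higher and 0 lower at an unadjusted p below 0.05).

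**Figure D5:**
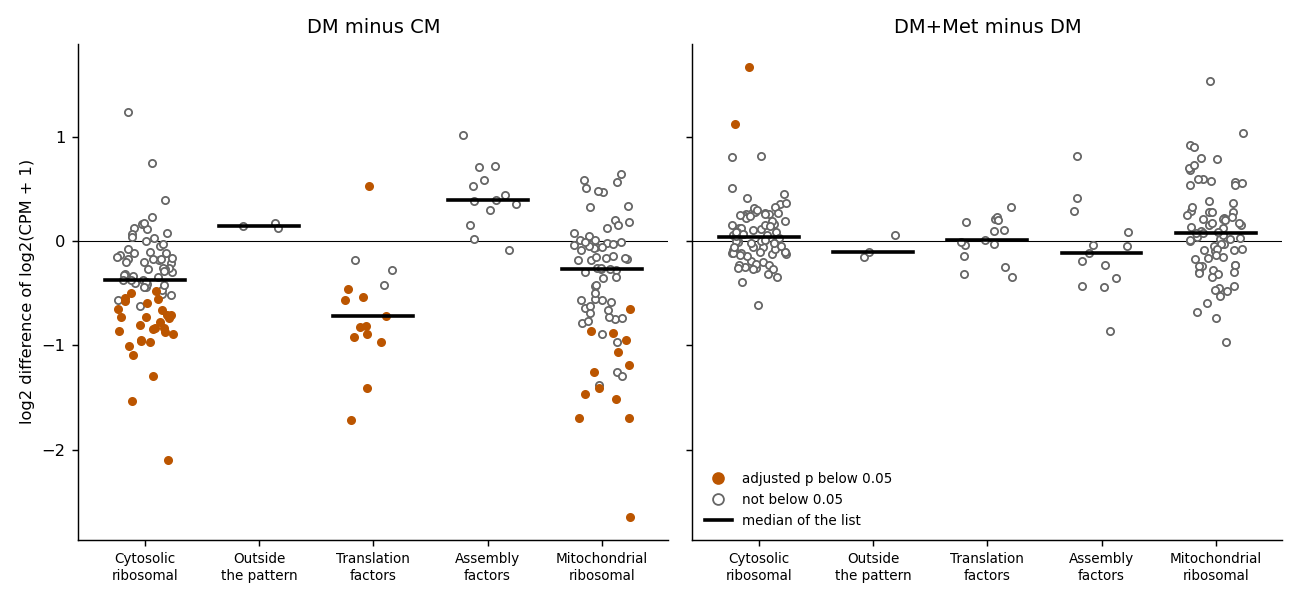
Log2 difference of each tested gene in DM against CM (left) and DM+Met against DM (right), for the cytosolic ribosomal protein genes, 3 that do not follow the symbol pattern, translation factors with TOP starts, assembly factors and mitochondrial ribosomal protein genes. Filled points had an adjusted p below 0.05 and the bar is the median, which lies below 0 on the left for the cytosolic and mitochondrial ribosomal proteins and the translation factors.

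Depth was 8504862 to 12377245 reads per library, recovered from the deposited values. All 7 CD4 T cell markers were present, with Cd4 at 7.35 to 8.13 on the log2 scale. The summed level of 5 CD8 T and natural killer markers was 119 and 129 CPM in CM, 41.7 and 31.6 in DM, with 46.1 and 53.8 in DM+Met. That of 6 myeloid markers was 13.1 to 17.7 CPM in CM and 25.8 to 39.7 CPM in the other media, and of 5 B cell markers 54.0 to 80.7 CPM. The summed level of 3 erythroid markers was 76.5 and 81.3 CPM in CM, 70.46 and 37.25 in DM, with 20.6 and 23.7 in DM+Met. Pax5, a defining B cell marker, was at 0 in every library. The members summed to between 6.83% and 9.60% of the scaled counts, and the part of other cells in their differences was not tested. Within DM the members' libraries also stood further apart, with a median difference of 0.28 between the 2 libraries compared with 0.08 in CM and 0.10 in DM+Met. Over all rows tested it was likewise widest in DM, at 0.47, compared with 0.39 in CM and 0.26 in DM+Met.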

How the data were processed

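Deposited values hold, on a log2 scale, the authors' TMM-adjusted CPM with 1 added, in 1 file per library (6 libraries, 500 ng total RNA each, 3′-end kit). The submitters' processing notes name mm10, Bowtie2 and bedtools, with no versions, and strand handling is not given in the sources used here. The members and lists were chosen with earlier results of these data known, although the rule for members reads only the symbol. Reads were recovered from the equal steps of the values. At up to 300 reads, at least 99.893% of values lay within 0.1 of a whole number. Libraries of 1 medium differed by 18.19 to 35.88 chi-square units per degree of freedom, more than counting noise, which does not tell separate cultures from repeat libraries of 1 culture.

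Rows with at least 0.946 CPM in 2 libraries and 15 reads in all were tested (limma 3.58.1, R 4.3.3, lmFit and eBayes with trend), with all 6 libraries in 1 fit, two-sided, Benjamini-Hochberg adjusted over 12770 rows. Every adjusted p comes from limma. Because 1 was added before the logarithm, changes of low genes are understated. Called means an adjusted p below 0.05. Named genes were the called members with the 10 largest changes each way, the stalk, Rpsa, Rps6, Rpl5, Rpl11, Rps14, Rps19, Rps15a with copies, paralog pairs, and called or most abundant genes of each list. The lists were ribosomal proteins outside the pattern, TOP factors and regulators, assembly factors, p53 targets, mitochondrial ribosomal proteins and cell type markers. Copies were aligned with blastn 2.17.0 to GENCODE M21. The fits were also run on simulated reads that had the same spread beyond counting noise in every row. That run was not matched to the spread between these libraries, and its outcome is not given here. Alternatives changed scaling, pseudocount (0.1 or 5), filter, variance model, libraries, replicate block and copies. No column of per-sample values was left out. Some single genes are not reported here.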

Additional observations from a re-analysis of the deposited data

How the results depend on the processing

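Of 18 alternatives, 17 kept the median of the members in DM against CM within the spread between libraries, and the exception was library totals without Rn45s (-0.22, with 0.21 for all rows). The count of 29 called in this comparison was 3 without an intensity trend, 19 with only the 2 media compared, and 5 to 24 with 1 library left out, which leaves a lone library assumed to vary like the other media. For DM+Met against DM the count of 2 was 4 under library totals (median 0.41), 1 with copies added to members, 1 with a pseudocount of 0.1, and 0 without a filter, without a trend, with only the 2 media compared, and with any 1 library left out (0 to 0). In those limma fits 5 to 19 members were higher at an unadjusted p below 0.05 with a library left out, and the median was -0.0028 to 0.13. For DM+Met against CM the count of 25 was 10 under library totals (median 0.08), 14 under library totals without Rn45s (median -0.19), 12 without a filter, 5 without a trend, 16 with a pseudocount of 0.1, and 5 to 22 with 1 library left out (median -0.36 to -0.31). The cause of these changes was not tested, other than fewer libraries in the fit.

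With the library number as a replicate block, 26, 2 and 15 members were called in the 3 comparisons. The labels do not say whether a number is shared between media. Deviations of same-numbered libraries correlated across all rows at -0.025 (CM and DM), 0.005 (CM and DM+Met) and -0.03 (DM and DM+Met). Across the 82 members the same correlations were -0.353, -0.172 and -0.219. Of 137 differences of 56 named genes larger than their standard error, 2464 values under alternatives gave 2038 with the same direction and call, 366 that lost the call, 39 that gained it and 21 of opposite sign. In DM+Met against CM under library totals these were Rplp2 (0.21), Rps6 (0.018), Rpl36a (0.0073), Rpl36al (0.082), Rpl39 (0.089), Rps4x (0.17), Rps13 (0.20) and Rpl14 (0.022). For DM+Met against DM they were Rpl11 (0.13), Rps14 (0.13), Rps19 (0.10), Rpl7 (0.023), Rps4x (0.11), Rpl27a (0.10), Rpl41 (0.11), Rps3a1 (0.22), Eef1a1 (0.0503) and Tpt1 (0.12). With a DM library left out, Rps19 in DM+Met against DM (-0.604 to 0.069), Rps27 in DM against CM (-0.021 to 0.807) and Mrpl1 in DM+Met against DM (-0.4915 to 1.8905) changed sign. None of the values of opposite sign was called. Depth limits only Rpl39l, Rps4l, Rpl10l and Rpl3l, which had at most 63 reads in any library.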
